A study of Mus musculus with 12 samples.

Results

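The protein coding genes of the cytosolic ribosome were followed in 2 brain regions, hippocampus and cerebellum, of Syt14 knockout (KO) and wild-type (WT) mice as labelled. Members were the genes whose symbol begins with Rpl or Rps and a digit, together with Rplp0, Rplp1, Rplp2 and Rpsa. Of 102 protein coding rows with such a symbol, 10 S6 kinase genes, Rps19bp1 and 6 rows with pseudogene symbols were left out, since none of these encodes a ribosomal protein by name. A further 5 genes stayed under 1 CPM (counts relative to library size) in all 12 libraries. That left 80 members of 54446 gene rows, 48 named for the large subunit and 32 for the small subunit. Rpl24 lay just inside that limit, with a highest level of 1.45 CPM on the TMM scale used for levels below. Rpl36al lay just outside it, with 0.584 CPM by plain library size, the scale of the limit. The other genes under the limit were Rps27rt, Rpl10l, Rpl39l and Rpl3l.

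The series holds 12 poly(A) RNA-seq libraries from 6 mice, 3 of each genotype, and each animal gave both tissues. The groups were KO hippocampus (Syt14-/-), WT hippocampus (Syt14+/+), KO cerebellum (Syt14-/-) and WT cerebellum (Syt14+/+), with 3 libraries each. Syt14 encodes a synaptotagmin family protein of membrane trafficking, and the study asked about its part in mood disorder and motor coordination. The sources used here do not give age, sex, strain, the altered part of the gene or whether the knockout was confined to a cell type.

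Ribosomal proteins assemble with ribosomal RNA in the nucleolus, the small subunit reading the mRNA and the large subunit joining amino acids. Their mRNAs are made in matched amounts in most cells, and many begin with a run of pyrimidines through which the mTOR pathway sets how strongly they are translated. Neurons also carry these mRNAs into dendrites and axons, where new proteins are made near synapses.

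The libraries held 24355572 to 34971359 counts, in which 3 counts corresponded to 0.0858 to 0.123 CPM, and mitochondrial genome transcripts made up 3.76 to 4.52% of a library. Levels are given below as CPM scaled by TMM factors over all 12 libraries. Syt14 had 29.2, 28.0 and 30.6 CPM in KO hippocampus, against 38.5, 38.9 and 38.1 CPM in WT hippocampus. In the cerebellum it had 30.6, 30.7 and 30.3 CPM in KO, against 33.8, 33.3 and 38.2 CPM in WT. Its level was lower in every KO library than in every WT library of the tissue, yet most of the signal remained, and reads from unaltered exons cannot check the knockout. Neither difference passed the edgeR quasi-likelihood test over all genes (Benjamini-Hochberg adjusted p = 0.686 for the hippocampus, 0.644 for the cerebellum). The unadjusted p with edgeR was 3.88e-05 for the hippocampus and 0.00897 for the cerebellum. In the hippocampus 0.686 was the smallest adjusted p of all genes tested. Markers of the tissues fitted the labels: the summed level of 8 hippocampus markers was 1263 to 1423 CPM over the hippocampus libraries and 307 to 359 CPM over the cerebellum libraries. The 8 cerebellum markers summed to 142 to 184.5 CPM in the hippocampus and 4818 to 5511 CPM in the cerebellum.

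RefSeq promoter windows (build GRCm38.p6, from 250 bases before to 50 after the annotated start of the gene) were found for 60 of the 80 members. CGGAAG, the core bound by ETS family factors, was searched on both strands and lay in 68.3% of the member windows, against 17.2% of the 27025 windows of all genes. CTTTCC, a core of the pyrimidine run, was searched on the strand of the gene within 50 bases of the start and lay in 26.7% of the member windows, against 4.67% of all windows. The YY1 core ATGGCGG lay in 16.7% of member windows and 4.19% of all, and the GC box GGGCGG in 61.7% and 35.9%, both on either strand. TATAAA on the strand of the gene lay in 10% of member windows and 8.88% of all. CGGAAG can share its opening letters CGG with the end of ATGGCGG or GGGCGG. Stretches from 100 bases before to 30 after the start are shown for members on which the results turn, though not for Rplp1 and Rps21. The stretches shown are of genes among those with the largest tissue differences in each direction, and of Rps27 with its paralog Rps27l. They run 5′ to 3′ on the strand of the gene, and capitals mark CGGAAG, its complement CTTCCG, or CTTTCC.
Rps2, chr17:24719963-24720092, plus strand: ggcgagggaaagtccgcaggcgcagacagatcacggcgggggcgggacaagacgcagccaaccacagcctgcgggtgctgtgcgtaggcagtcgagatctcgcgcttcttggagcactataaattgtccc
Rpl41, chr10:128549139-128549268, minus strand: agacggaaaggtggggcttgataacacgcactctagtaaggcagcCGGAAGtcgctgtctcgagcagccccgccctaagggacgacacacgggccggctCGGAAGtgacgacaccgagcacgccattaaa
Rpl37, chr15:5116513-5116642, plus strand: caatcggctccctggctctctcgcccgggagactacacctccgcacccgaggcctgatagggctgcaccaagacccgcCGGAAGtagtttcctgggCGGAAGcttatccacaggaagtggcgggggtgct
Rps15, chr10:80292331-80292460, plus strand: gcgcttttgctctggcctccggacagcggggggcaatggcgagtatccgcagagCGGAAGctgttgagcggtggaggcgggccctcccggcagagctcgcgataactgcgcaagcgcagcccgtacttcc
Rps27, chr3:90213619-90213748, minus strand: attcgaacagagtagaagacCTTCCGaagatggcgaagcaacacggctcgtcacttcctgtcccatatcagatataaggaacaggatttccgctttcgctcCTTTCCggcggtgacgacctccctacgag
Rps27l, chr9:66945986-66946115, plus strand: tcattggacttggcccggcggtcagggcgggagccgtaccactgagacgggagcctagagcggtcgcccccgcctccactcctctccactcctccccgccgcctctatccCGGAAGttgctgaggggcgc
Rpl7l1, chr17:46782627-46782756, minus strand: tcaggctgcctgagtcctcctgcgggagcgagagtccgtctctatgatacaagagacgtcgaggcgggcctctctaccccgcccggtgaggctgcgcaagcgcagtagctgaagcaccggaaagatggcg
Rps15a, chr7:118116118-118116247, minus strand: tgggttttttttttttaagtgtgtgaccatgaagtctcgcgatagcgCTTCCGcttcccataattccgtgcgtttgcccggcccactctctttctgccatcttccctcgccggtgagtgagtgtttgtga
The printed stretches of Rps2 and Rpl7l1 held no match to the capitalised motifs, whereas those of Rpl41 and Rpl37 held 2 copies of CGGAAG each. Matches describe the letters of a window and are not shown to be bound sites.

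The members were among the most abundant protein coding genes in both tissues. Per kilobase of annotated exons, the median member averaged 40.6 CPM over the 12 libraries, against 3.37 CPM for the 18567 protein coding genes with a count, and 78 of the 80 members lay above that median. The group medians per kilobase of exons were 44.2 CPM in KO hippocampus, 45.9 CPM in WT hippocampus, 35.5 CPM in KO cerebellum and 35.0 CPM in WT cerebellum. Depth was ample for most members, and none of the 80 was lost to the filter on low counts in any comparison.

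The highest level per kilobase of exons belonged to Rplp1, an acidic protein of the stalk that recruits elongation factors, at 322 ± 95.1 CPM (SD over 12 libraries of both tissues). It was followed by Rps3a1 at 190 CPM, Rps15 at 183.45 CPM, Rpl4 at 182 CPM, Rpl8 at 143 CPM and Rpl19 at 115 CPM. The lowest was Rpl24, a protein of the bridge between the subunits, at 0.919 ± 0.231 CPM, and next Rps10, a protein of the small subunit head, at 1.91 ± 0.389 CPM. Rps28 stood at 5.64 CPM per kilobase, Rps27l at 5.69 CPM, Rpl13a at 7.15 CPM and Rpl22l1 at 8.50 CPM.

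These positions depended in part on the length used. Per kilobase of the longest coding sequence Rplp1 (470 CPM) still ranked 1 and Rpl24 (2.01 CPM) and Rps10 (8.72 CPM) still ranked lowest, but Rps15a ranked 4 with 314 CPM, against rank 65 with 19.5 CPM per kilobase of exons. Over the 80 members the ranks by exons and by coding sequence had a Spearman correlation of 0.632, a description with no test. Ribosomal protein genes have many near-identical processed pseudogenes, and reads that fit several places may be dropped or split, so the low levels of members such as Rpl24 and Rps10 are uncertain as measures of their mRNA. Rows of pseudogenes named after Rps10 held counts equal to 12% of its own, and no such row was found for Rpl24.

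**Figure D1:**
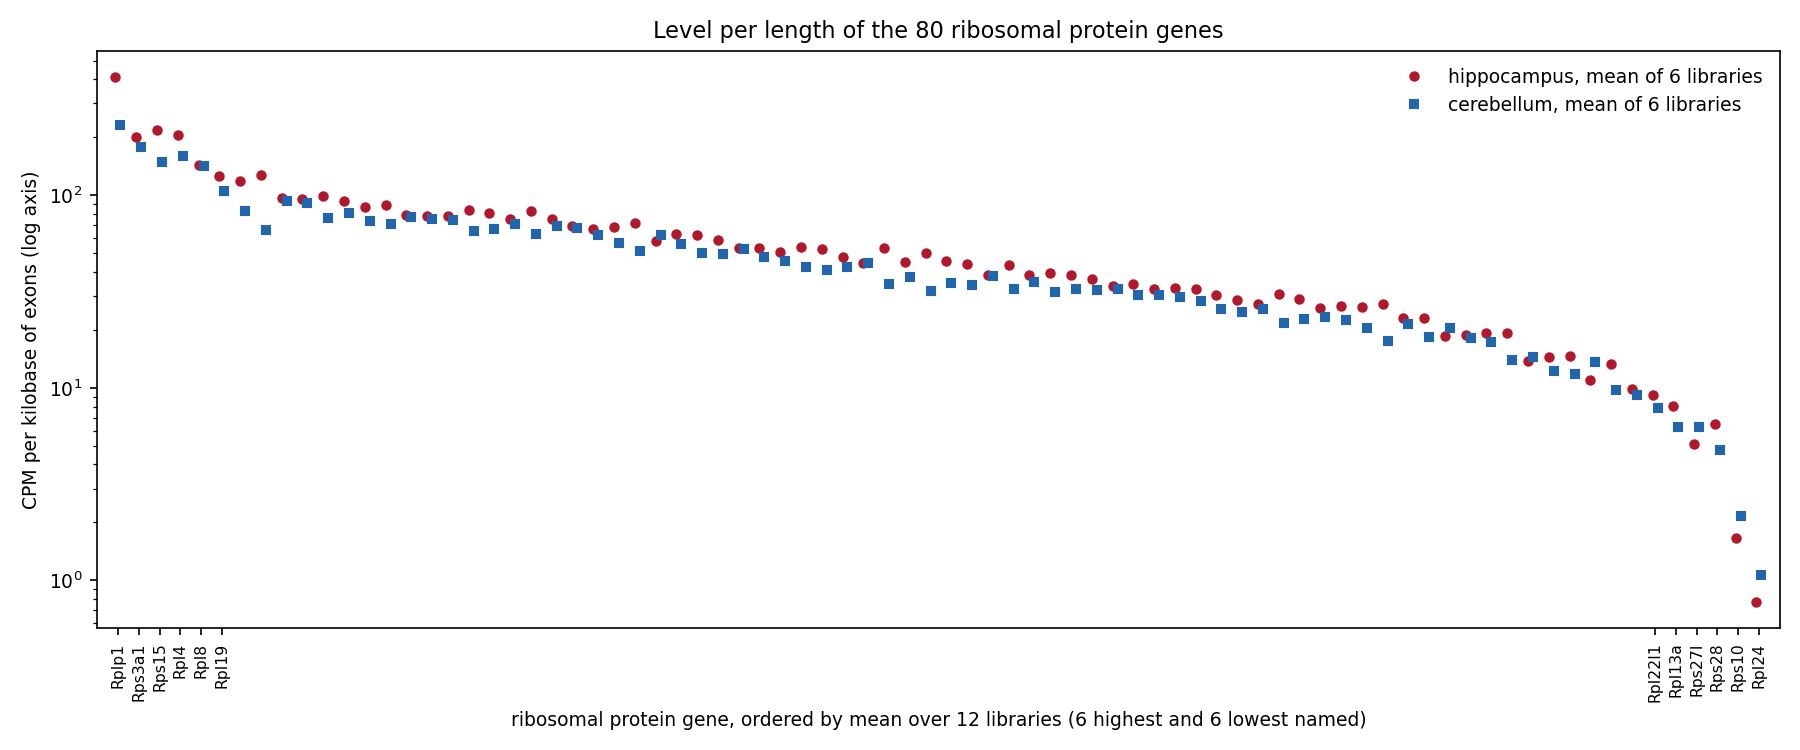
Level of each of the 80 members in CPM per kilobase of exons on a log axis, ordered by the mean of 12 libraries; points are means of the 6 hippocampus and the 6 cerebellum libraries, and the 6 highest and 6 lowest members are named. Rplp1 stands highest (322 CPM per kilobase over all libraries) and Rpl24 lowest (0.919 CPM per kilobase), and for most members the hippocampus point lies above the cerebellum point.

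Together the 80 members took under 1 in 100 counts. Their share was 0.762, 0.758 and 0.793% in KO hippocampus, 0.787, 0.759 and 0.823% in WT hippocampus, 0.753, 0.757 and 0.686% in KO cerebellum, and 0.708, 0.742 and 0.677% in WT cerebellum. KO and WT overlapped in both tissues. The means were 0.771 ± 0.0186% in KO hippocampus and 0.790 ± 0.0320% in WT hippocampus, and 0.732 ± 0.0401% in KO cerebellum and 0.709 ± 0.0323% in WT cerebellum (SD, n = 3 each). The 95% Wilson intervals of single libraries were at most 0.0034 percentage points to either side, so counting error was small beside the spread between animals.

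The tissue comparison asked where the 2 brain regions differ in ribosomal protein mRNA, and it was run apart in the animals of each genotype, which share no library. Most members were higher in the hippocampus. In KO animals 39 members were higher and 3 lower in the hippocampus at an adjusted p under 0.05 (edgeR quasi-likelihood, Benjamini-Hochberg over 18200 genes), where 31.6% of all genes tested were called higher and 32.5% lower. In WT animals 60 members were higher and 2 lower, of 18128 genes of which 33.1% were called higher and 33% lower. The median log2 fold change of the members was 0.15 in KO and 0.26 in WT animals, against -0.025 and -0.022 over all genes tested. In KO animals 67 members lay above 0 and 13 below, where 48.4% and 51.6% of all genes did, and in WT animals 73 and 7, where 48.7% and 51.3% did. The libraries of the tissues did not overlap for 43 members higher and 3 lower in KO, where 34.5% and 35.8% of all genes stood apart, and for 56 higher and 3 lower in WT, where 35% and 35.7% did.

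The calls rested partly on the scaling. With plain library sizes the median of all genes moved to -0.16 in both genotypes, the members' median to 0.011 in KO and 0.12 in WT, and 20 members were higher and 11 lower in KO, and 38 higher and 7 lower in WT. Of all genes tested, 25.6% were called higher and 41.6% lower in KO under that scaling, and 26.8% and 42% in WT. In KO the members' share of higher calls was then close to that of all genes, and their share of lower calls was smaller. Relative to the median of all genes the members' median was 0.17 in KO and 0.29 in WT under either scaling. A scaling factor shifts all genes of a library nearly alike, so this gap could not depend on the scaling. All hippocampus columns carry the token L1 in their headers and all cerebellum columns L4, a token whose meaning the headers do not give, so tissue and token cannot be told apart. In bulk tissue, fewer cells of a type and less RNA per cell cannot be told apart either.

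Both genotypes called 39 of the 80 members higher in the hippocampus, where 29.3% of the 17774 genes tested in both were called so, and 2 members lower, where 29% of genes were. WT animals alone called 21 members, and 17 were called in neither genotype. Rpl18 alone was called in KO only (log2 -0.16, adjusted p = 0.0421); it was named after its values were seen, and it did not pass with the animal as a block. The sign was the same in both genotypes for 72 members. Tissue differences were modest: no member reached a 2-fold difference in WT animals, and 6 members in WT and 3 in KO animals were over 1.5-fold higher in the hippocampus.

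Among large subunit genes the widest tissue difference was that of Rplp1, named above for the stalk. It had 209, 193 and 213 CPM in KO hippocampus, against 126, 121 and 106 CPM in KO cerebellum. In WT animals it had 207, 192.3 and 219 CPM in the hippocampus, against 119.8, 118 and 107 CPM in the cerebellum. Every hippocampus library stood above every cerebellum library. The log2 fold change was 0.80 ± 0.07 in KO (SE, n = 3; edgeR adjusted p = 5.46e-06) and 0.85 ± 0.06 in WT (4.48e-08). Its partners in the stalk differed less: Rplp0, the base of the stalk, had log2 0.05 ± 0.05 in KO and 0.09 ± 0.05 in WT (edgeR adjusted p = 0.455 and 0.123). Rplp2 had 0.11 ± 0.07 in KO (edgeR adjusted p = 0.207) and rose by 0.17 ± 0.06 in WT (0.0174); whether Rplp1 differed more than its partners was not tested.

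Rpl41, the shortest of the ribosomal proteins, lies at the face between the subunits. It had 56.1, 54.7 and 58.0 CPM in KO hippocampus, against 40.7, 40.4 and 35.6 CPM in KO cerebellum, and 59.4, 58.2 and 65.2 CPM in WT hippocampus, against 35.2, 38.9 and 32.3 CPM in WT cerebellum. Rpl37, a zinc-binding large subunit protein, had 42.1, 43.5 and 43.3 CPM in KO hippocampus, against 32.7, 30.4 and 27.5 CPM in KO cerebellum. In WT animals Rpl37 had 49.1, 47.3 and 49.7 CPM in the hippocampus, against 29.2, 28.5 and 28.4 CPM in the cerebellum. For both genes the tissues did not overlap in either genotype, and the gap was wider in WT. Log2 fold changes were 0.53 ± 0.07 in KO and 0.78 ± 0.07 in WT for Rpl41 (edgeR adjusted p = 7.37e-05 and 7.51e-07), and 0.50 ± 0.07 in KO and 0.77 ± 0.05 in WT for Rpl37 (2.02e-04 and 5.18e-08).

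Among small subunit genes Rps2, whose protein lines the channel through which mRNA enters the ribosome, had the largest difference of any member. It had 237, 228 and 232 CPM in KO hippocampus, against 126, 129 and 116 CPM in KO cerebellum, and 229, 229 and 246 CPM in WT hippocampus, against 121, 120.2 and 114 CPM in WT cerebellum. The hippocampus libraries of both genotypes lay close together and far above all cerebellum libraries. The log2 fold change was 0.91 ± 0.05 in KO and 0.99 ± 0.05 in WT (edgeR adjusted p = 3.79e-07 and 1.02e-09).

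Rps21 and Rps15, a protein of the small subunit head, were the next of the small subunit. Rps21 had 42.9, 40.0 and 45.4 CPM in KO hippocampus, against 31.2, 27.5 and 25.9 CPM in KO cerebellum, and 44.2, 44.6 and 43.2 CPM in WT hippocampus, against 27.7, 29.9 and 27.1 CPM in WT cerebellum. Rps15 had 131, 132 and 136 CPM in KO hippocampus, against 95.1, 101 and 88.9 CPM in KO cerebellum, and 140.5, 130.0 and 151 CPM in WT hippocampus, against 92.7, 99.7 and 88.8 CPM in WT cerebellum. Neither gene overlapped between tissues. Their log2 fold changes were 0.60 ± 0.08 (KO) and 0.64 ± 0.06 (WT) for Rps21, and 0.48 ± 0.05 (KO) and 0.59 ± 0.06 (WT) for Rps15, all with edgeR adjusted p of 1.56e-04 or less.

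Rpl7l1 and Rps15a went the other way. Rpl7l1, a relative of Rpl7, had 36.2, 39.7 and 41.2 CPM in KO hippocampus, against 48.8, 46.4 and 51.4 CPM in KO cerebellum, and 39.6, 36.5 and 37.9 CPM in WT hippocampus, against 47.9, 48.3 and 43.1 CPM in WT cerebellum. All hippocampus libraries lay below all cerebellum libraries, with log2 -0.33 ± 0.07 in KO and -0.29 ± 0.06 in WT (edgeR adjusted p = 0.00161 and 0.00139). Rps15a, of the small subunit, had 112, 119 and 109 CPM in KO hippocampus, against 124 CPM in each library of KO cerebellum, and 122, 115 and 119.7 CPM in WT hippocampus, against 130.1, 135 and 136 CPM in WT cerebellum. Its log2 fold change was -0.14 ± 0.05 in KO and -0.17 ± 0.05 in WT (edgeR adjusted p = 0.0241 and 0.00605), and the KO call was lost with RLE factors (0.0519), with DESeq2 (0.0826) and with 5 of the 6 libraries left out in turn. Rpl24 (log2 -0.43 in KO, -0.50 in WT) and Rps10 (-0.33 and -0.45) had larger differences at low counts that did not pass the test, although Rps10 passed in WT with the animal as a block.

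**Figure D2:**
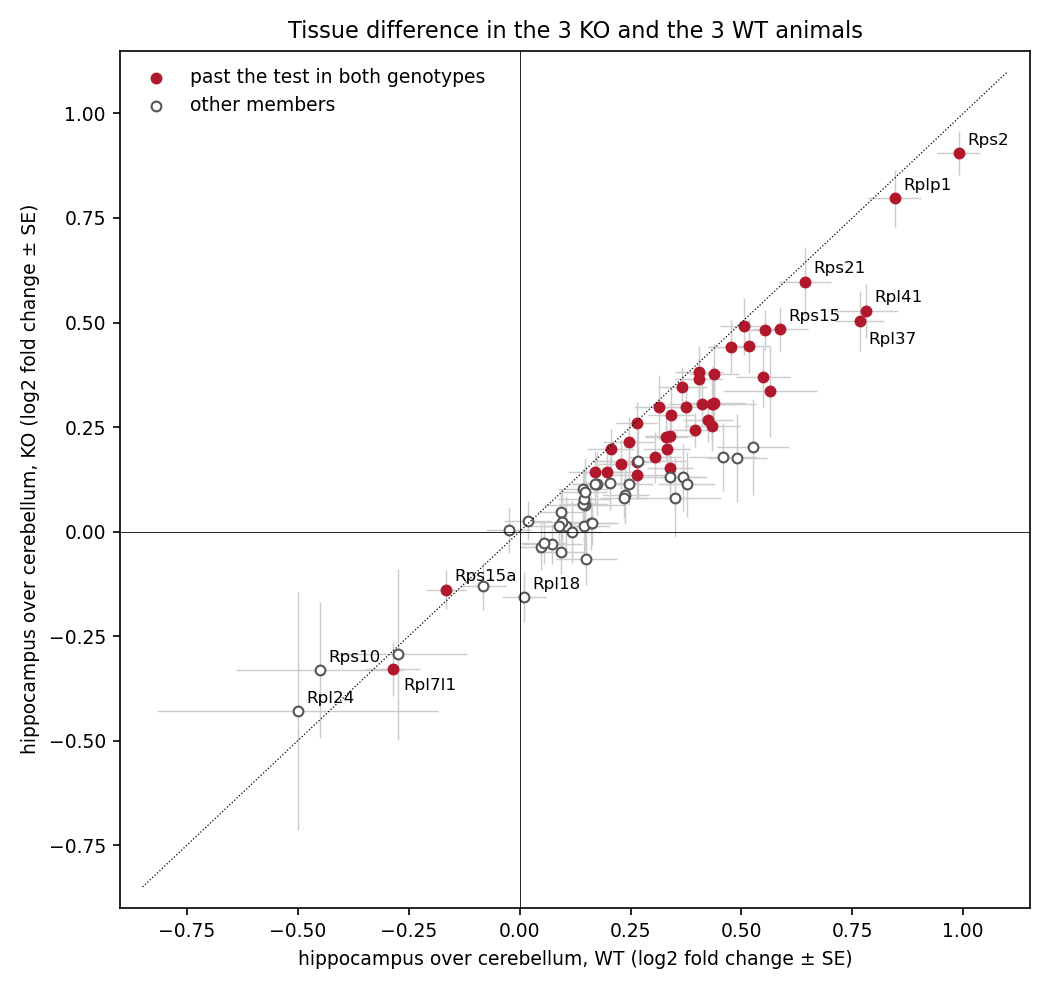
Hippocampus over cerebellum log2 fold change of each member in WT animals (horizontal axis) and KO animals (vertical axis), with SE bars; filled points passed the test in both genotypes and the dotted line marks equal values. Rps2 and Rplp1 lie at the upper right near the line, Rpl41 and Rpl37 lie below it, and 75 of the 80 members had the larger value in WT.

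The tissue difference, from a fit of each genotype, had the larger value in WT than in KO animals for 75 of the 80 members. The same gap was tested in a fit of all 12 libraries as the contrast of genotype effects between the regions. That contrast lay below 0 for 73 members and none was called, as given with the genotype results. Cell type markers moved with the tissue as well. The 8 microglia markers were all called higher in the hippocampus in both genotypes, with summed levels of 312 to 341 CPM in KO hippocampus, against 145 to 156 CPM in KO cerebellum, and 305 to 354 CPM in WT hippocampus, against 125 to 132 CPM in WT cerebellum. The 8 choroid plexus markers summed to 171 to 232 CPM in KO hippocampus, against 183.6 to 2887 CPM in KO cerebellum, and to 192.1 to 258 CPM in WT hippocampus, against 1889 to 4391 CPM in WT cerebellum. Of the 8 markers of meninges and fibroblasts 6 were called lower in the hippocampus and 1 higher in KO, and 7 lower and 1 higher in WT. Of 5 red blood cell markers 4 were lower in each genotype. Of 8 endothelium and pericyte markers 5 were lower in KO, and 0 were lower and 1 higher in WT. Of 5 brainstem neuron markers tested 4 were lower in KO and 2 in WT. Astrocyte markers (3 higher and 4 lower of 8) and neuron markers (3 and 3 of 8) were split in both genotypes, and oligodendrocyte markers had 2 lower in KO and 1 each way in WT. No cell type marker was at 0 in all 12 libraries. The part of such cells in the members' difference was not tested.

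Of the 60 members with a promoter window, the 41 with CGGAAG had a median tissue log2 fold change of 0.20 in KO and 0.33 in WT, against 0.14 and 0.23 for the 19 without it. The 16 with CTTTCC near the start had medians of 0.18 in KO and 0.37 in WT, against 0.16 and 0.26 for the 44 without it. These medians are descriptions of the members with a window.

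Paralogs stood well below the genes they are named after. Rpl22l1 averaged 18.1 ± 1.85 CPM in KO hippocampus, 18.3 ± 2.78 CPM in WT hippocampus, 16.1 ± 0.628 CPM in KO cerebellum and 15.2 ± 0.443 CPM in WT cerebellum (SD, n = 3), where Rpl22 averaged 74.3, 76.8, 67.1 and 68.3 CPM in the same order. Rps27l averaged 4.03, 4.36, 4.91 and 5.28 CPM, where Rps27 averaged 28.0, 32.1, 24.7 and 22.9 CPM. Per kilobase of exons these pairs keep their order, Rps27l being at 5.69 CPM and Rpl22l1 at 8.50 CPM, among the lowest of all members. Rpl7l1 averaged 39.0, 38.0, 48.9 and 46.4 CPM and Rpl7, which belongs to the large subunit, 153, 157, 167 and 167 CPM.

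By tissue, the members of a pair did not all go alike. Rpl22 was higher in the hippocampus in both genotypes (log2 0.14 ± 0.05 in KO and 0.17 ± 0.06 in WT, edgeR adjusted p = 0.0306 and 0.0280), a call lost in both with plain library sizes, in KO without the filter (0.0817) and with the animal as a block (0.0509), and in 4 KO and 3 WT fits that left out 1 library. Rpl22l1 had 0.17 ± 0.09 in KO and 0.27 ± 0.11 in WT (edgeR adjusted p = 0.132 and 0.0417). It passed in KO without KO hippocampus library 2 (0.0330), and the WT call was lost with plain library sizes, with limma-voom and in 5 of the 6 fits that left out 1 library. Rps27 was higher in the hippocampus of WT animals (log2 0.49 ± 0.07, edgeR adjusted p = 2.57e-05) and had 0.17 ± 0.11 in KO (0.173), where it passed without KO cerebellum library 1 (log2 0.29, edgeR adjusted p = 0.0309). Rps27l had -0.29 ± 0.21 in KO and -0.27 ± 0.15 in WT, and Rpl7 -0.13 ± 0.06 and -0.08 ± 0.05, none past the test. With plain library sizes Rpl7 was lower in the hippocampus in both genotypes (log2 -0.27 in KO and -0.22 in WT, edgeR adjusted p = 0.00253 and 0.00223), and Rps27l in WT (-0.41, 0.0315). Rpl7 also passed without KO cerebellum library 3 (0.0190) and without WT cerebellum library 3 (0.0344). Rps4x, the X-linked gene of its protein, was higher in both (0.37 ± 0.05 in KO and 0.40 ± 0.05 in WT, edgeR adjusted p = 2.70e-04 and 1.87e-05).

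Ribosomal proteins under other names were set beside the members. Fau, whose product begins as a fusion with a ubiquitin-like sequence, and Rack1, a scaffold on the small subunit, were called in none of the comparisons. With plain library sizes Fau was lower in the hippocampus in KO animals (log2 -0.14, edgeR adjusted p = 0.0459) and Rack1 in WT animals (log2 -0.13, edgeR adjusted p = 0.0350). Fau averaged 84.1 CPM in KO hippocampus, 88.2 CPM in WT hippocampus, 83.9 CPM in KO cerebellum and 82.9 CPM in WT cerebellum. Rack1 averaged 123, 122, 121 and 121 CPM in the same order.

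The genotype comparison asked whether ribosomal protein mRNA differs with the Syt14 knockout. No member passed the test in either tissue. In the hippocampus 0 of 80 members were called, where 0% of the 17693 genes tested were called, and the smallest adjusted p of a member was 0.995 with edgeR. At an unadjusted p under 0.05 there were 3 members, all lower in KO, where 4.34% of all genes tested passed, and DESeq2 called 0 members. In the cerebellum 0 of 80 were called, where 0.0113% of 17733 genes were, with a smallest member adjusted p of 0.706. There 1 member had an unadjusted p under 0.05, against 6.77% of all genes, and DESeq2 again called 0 members.

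The changes were small in every member: between -0.20 and 0.085 in log2 units in the hippocampus and between -0.11 and 0.20 in the cerebellum. In the hippocampus 67 members lay below 0 and 13 above, where 49.2% of all genes lay below and 50.8% above, and the median was -0.041 against 0.0017 over all genes. In the cerebellum 66 lay above 0 and 14 below, where 51% and 49% of all genes did, and the median was 0.046 against 0.0025. In all, 57 members lay below 0 in the hippocampus and above 0 in the cerebellum. Hippocampus and cerebellum medians were -0.043 and 0.054 for the large subunit and -0.038 and 0.026 for the small subunit.

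Single libraries set the size of these medians. Without WT library 3 the hippocampus median was -0.0033, without WT library 2 it was -0.080, and without KO library 3 it was -0.071. The cerebellum median was 0.018 without KO library 1 or without WT library 3, 0.026 without KO library 2, 0.070 without WT library 2 and 0.089 without KO library 3.

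**Figure D3:**
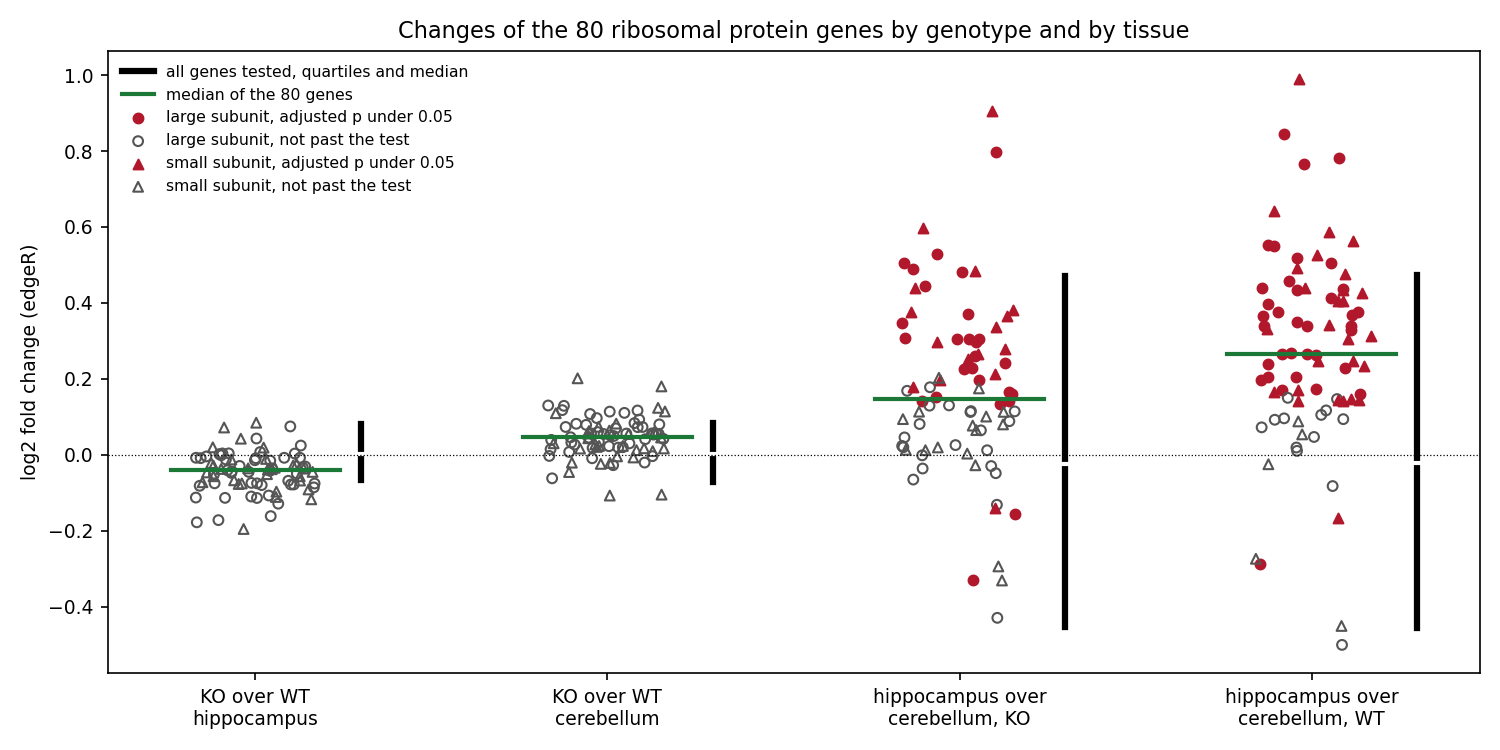
Log2 fold changes of the 80 members by genotype in each tissue and by tissue in each genotype; circles are large and triangles small subunit genes, filled where the adjusted p was under 0.05. Green lines mark the members' medians (-0.041, 0.046, 0.15 and 0.26 from left to right) and black bars the quartiles of all genes tested, with the median in white.

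The 6 hippocampus members with the smallest p were Rpl37, Rpl37a, Rps27, Rpl29, Rps7 and Rpl32. Rpl37 had 42.1, 43.5 and 43.3 CPM in KO hippocampus, against 49.1, 47.3 and 49.7 CPM in WT hippocampus, the groups standing apart (log2 -0.18 ± 0.05, unadjusted p = 0.00624 and adjusted p = 0.995 with edgeR). Rpl37a, another zinc-binding protein of the large subunit, had 34.8, 35.0 and 36.1 CPM in KO, against 39.0, 38.6 and 42.0 CPM in WT (log2 -0.17 ± 0.06). Rps27, a zinc-binding protein of the small subunit, had 30.3, 25.6 and 28.2 CPM in KO, against 31.7, 31.99 and 32.6 CPM in WT (log2 -0.20 ± 0.07). In these 3 genes each KO library lay below each WT library, and in Rps27 the gap was narrower than the spread among KO libraries. Rpl29 (log2 -0.11), Rps7 (-0.09) and Rpl32 (-0.11) differed less. Groups did not overlap for 7 members, all lower in KO (Rpl27, Rpl36a, Rpl37, Rpl37a, Rpl41, Rps27 and Rps7), where 4.68% of all genes stood apart in that direction and 5.13% in the other.

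In the cerebellum the members with the smallest p included Rps15a, Rps29, Rps28, Rpl17 and Rps26. Rps15a had 124 CPM in each KO cerebellum library, against 130.1, 135 and 136 CPM in WT cerebellum (log2 -0.10 ± 0.04, unadjusted p = 0.0284 and adjusted p = 0.706 with edgeR). Rps29, a zinc-binding protein of the small subunit, had 17.1, 14.3 and 13.9 CPM in KO, against 12.7, 12.9 and 13.7 CPM in WT (log2 0.20 ± 0.10). The Rps29 groups were separated by little and 1 KO library stood well above the rest. Rps28 (log2 0.18), Rpl17 (0.10) and Rps26 (0.12) did not pass either. Members whose groups stood apart higher in KO included Rpl18, Rps13, Rps28 and Rps29, where 6.47% of all genes stood apart so, and Rps15a stood apart lower, where 5.4% did. No member stood apart in both tissues.

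**Figure D4:**
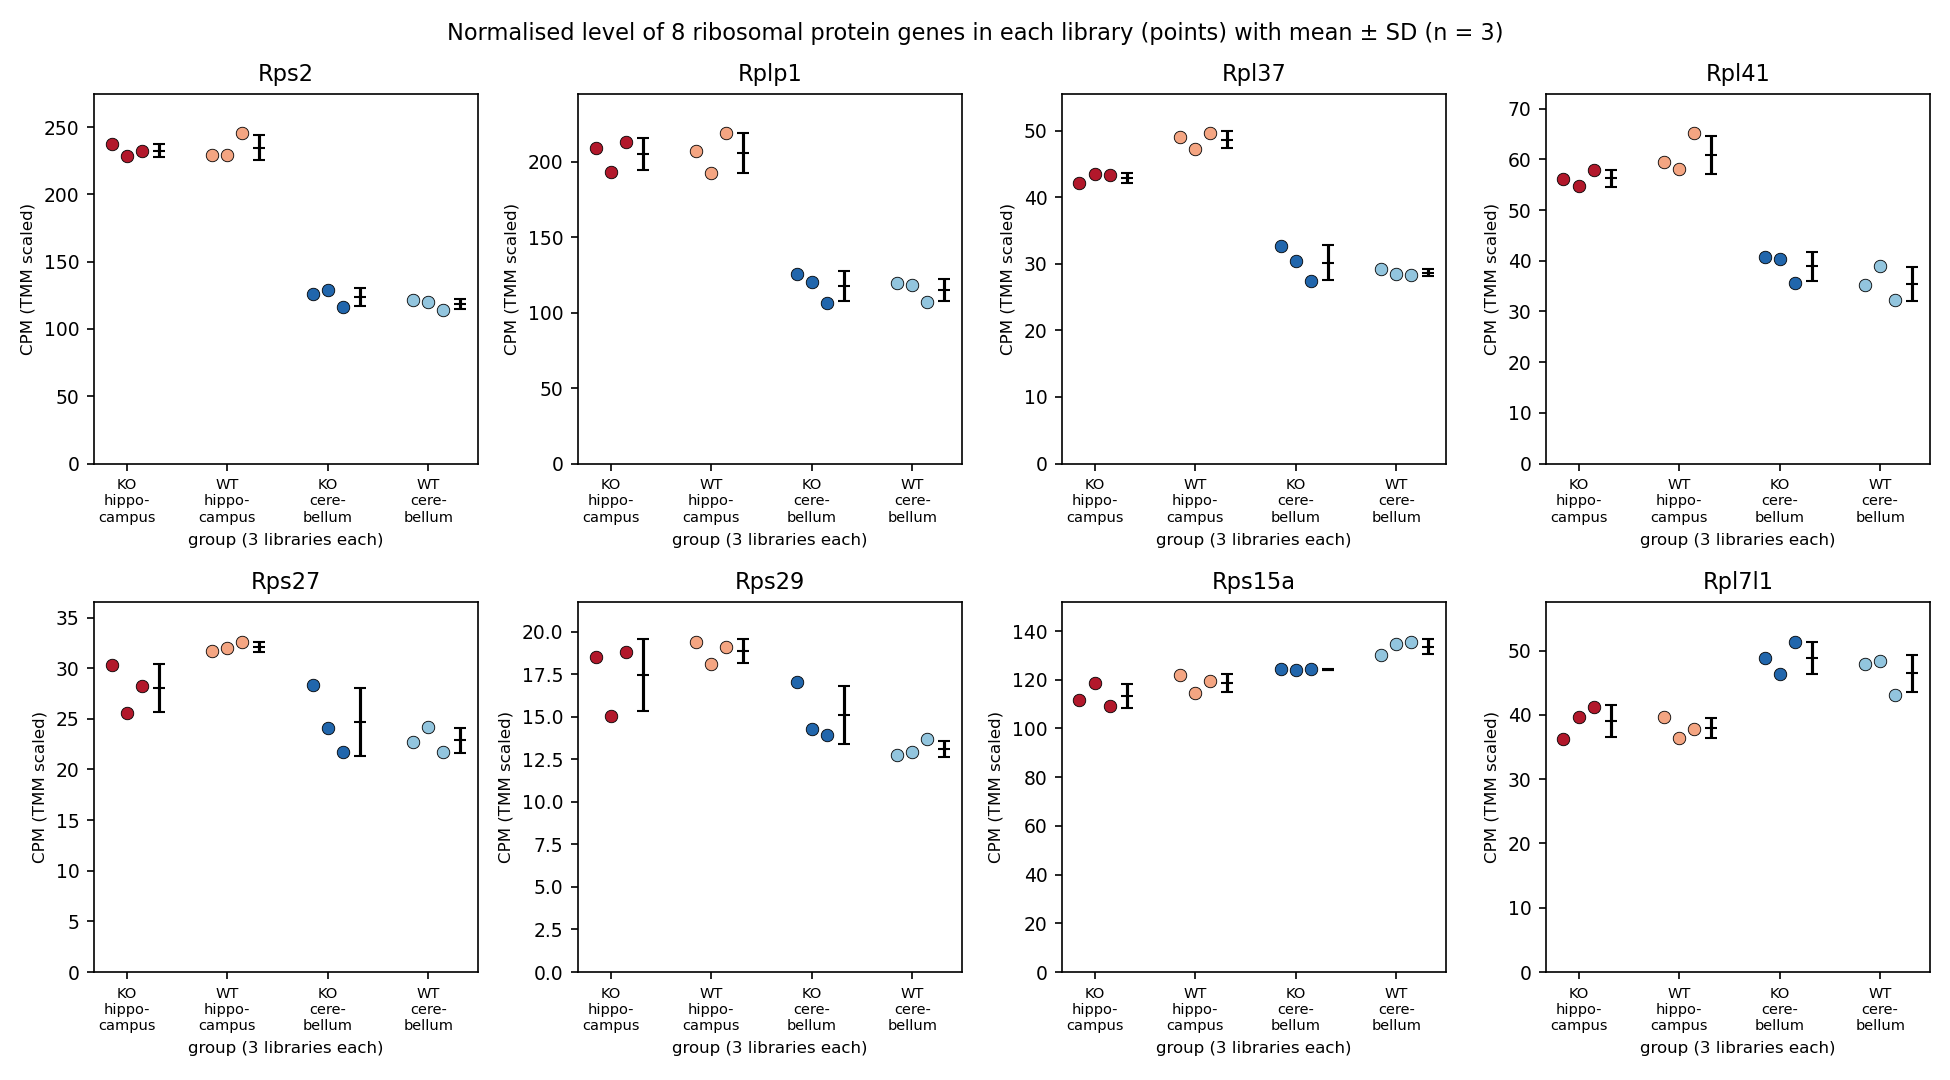
TMM-scaled CPM of 8 members in each of the 12 libraries, with the mean ± SD of 3 libraries beside each group. Rps2 and Rplp1 separate the tissues in both genotypes, and Rps15a and Rpl7l1 are lower in the hippocampus. In the hippocampus KO lies below WT without overlap for Rpl37 (42.1 to 43.5 against 47.3 to 49.7 CPM), Rpl41 and Rps27. In the cerebellum Rps29 stands apart higher and Rps15a lower in KO. No genotype difference of a member passed the test. Of all genes, 4.68% stood apart lower in the hippocampus, and 6.47% higher and 5.4% lower in the cerebellum.

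The genotype effect was then compared between tissues in a fit of all 12 libraries. No member was called, where 0.0105% of 19027 genes were, and the smallest member adjusted p was 0.896 with edgeR, while DESeq2 also called 0 members. At an unadjusted p under 0.05 there were 9 members, where 5.34% of all genes passed. The difference, hippocampus minus cerebellum, was below 0 for 73 members and above 0 for 7, where 50.8% of all genes lay below and 49.2% above, with a median of -0.078 against -0.0028 over all genes. The median was -0.117 without WT hippocampus library 2, -0.044 without WT hippocampus library 3 and -0.128 without KO cerebellum library 3. By smallest p the genes were Rpl37 (-0.25 ± 0.09), Rpl37a (-0.25 ± 0.10), Rps27 (-0.31 ± 0.13), Rpl17 (-0.18 ± 0.07), Rpl35 (-0.27 ± 0.11) and Rpl41 (-0.24 ± 0.10). Rpl35, at the exit tunnel of the large subunit, had 23.9, 27.5 and 29.1 CPM in KO hippocampus, against 30.03, 28.5 and 31.8 CPM in WT hippocampus. In the cerebellum Rpl35 had 24.03, 23.9 and 23.0 CPM in KO, against 20.4, 23.7 and 21.6 CPM in WT. Its groups overlapped in both tissues.

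Several of these genes encode very short proteins, and the members were therefore split by the length of the longest coding sequence, a split chosen after values were seen. The 9 members under 300 bases had median genotype log2 fold changes of -0.11 (hippocampus) and 0.11 (cerebellum). The 46 members from 300 to under 600 bases had -0.054 and 0.045, and the 25 of 600 bases or more -0.024 and 0.028. Other protein coding genes had, by the same classes from short to long, hippocampus medians of -0.017, -0.013 and 0.0015 and cerebellum medians of 0.047, 0.031 and -0.0022. In both tissues the short members stood farthest from 0, and short genes outside the family had medians of the same sign. The part of transcript length in the members' values was not tested.

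The members moved together from library to library. Within the groups, the deviations of pairs of members over the 12 libraries had a median Pearson correlation of 0.599, and 92.2% of the 3160 pairs were above 0. The first component held 43.6% of this within-group variance. For Rps10 (-0.17), Rps15a (-0.041) and Rps27l (-0.0010) the mean correlation with the other members was below 0. All members share the depth and composition of their library, so these values are descriptions with no test.

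The median member stood -0.044, -0.057 and 0.035 log2 units from the tissue mean in the KO hippocampus libraries, and 0.021, -0.042 and 0.093 in the WT hippocampus libraries. In the cerebellum it stood at 0.072, 0.055 and -0.061 in KO and at -0.011, 0.022 and -0.073 in WT. KO and WT libraries overlapped in both tissues, and WT hippocampus library 3 and WT cerebellum library 3, from the same animal, lay at opposite ends of their tissues. Other protein coding genes with exons under 1000 bases (240 genes in the hippocampus, 262 in the cerebellum) rose and fell with the members. The Pearson correlations were 0.957 and 0.934 (n = 6 libraries each, which share depth and scaling). Their deviations were mostly smaller, such as -0.0097 in KO hippocampus library 1 and 0.046 in WT hippocampus library 3. They were larger in KO cerebellum library 2 (0.079) and WT cerebellum library 2 (0.028). Most members have longer exons, so these genes are not matched to them by length. For the 12 coding genes of the mitochondrial genome that were among the genes tested the Pearson values were 0.673 and 0.765.

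**Figure D5:**
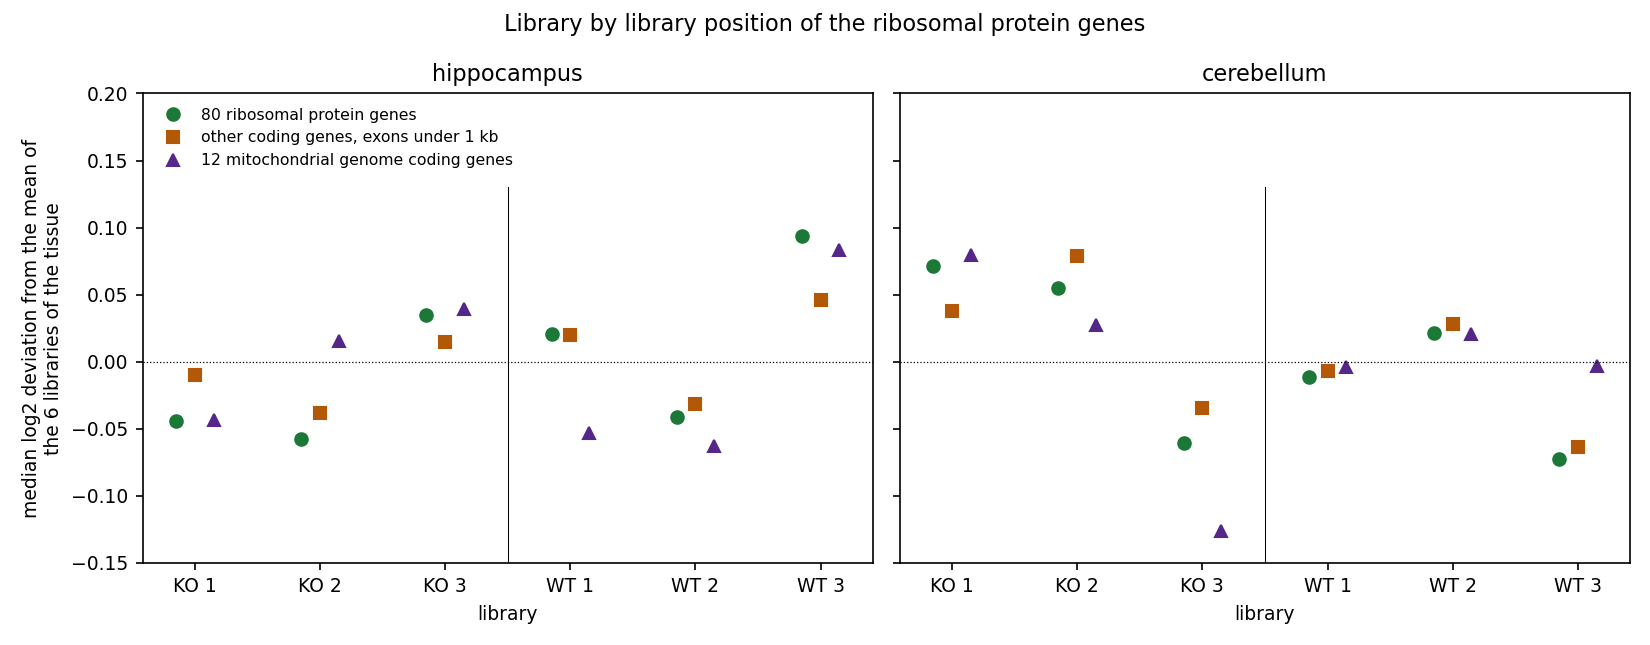
Median log2 deviation of the 80 members from the mean of the 6 libraries of a tissue, for each library. Beside them stand coding genes outside the family with exons under 1000 bases, and the 12 mitochondrial coding genes tested. WT hippocampus library 3 is highest for the members (0.093) and WT cerebellum library 3 lowest (-0.073). The genes outside the family with exons under 1000 bases lie on the same side of 0 as the members, nearer to 0 in most libraries.

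By genotype no cell type marker was called in either tissue. The 8 endothelium and pericyte markers all lay below 0 in the hippocampus, summing to 315 to 352 CPM in KO and 366 to 411 CPM in WT. Of the 8 markers of meninges and fibroblasts 7 lay below 0 there (median log2 -0.57), summing to 67.9 to 85.6 CPM in KO and 82.4 to 146 CPM in WT, and all 8 oligodendrocyte markers lay below 0 (median -0.038), with sums of 4561 to 6743 CPM in KO and 4985 to 6668 CPM in WT. Neuron and microglia markers had 6 of 8 below 0, and red blood cell markers 4 of 5. Astrocyte markers leaned the other way in the hippocampus, with 5 above 0 and 3 below. Of 6 choroid plexus markers tested there 3 lay on each side, and of 3 brainstem neuron markers tested 2 lay below 0. The 8 choroid plexus markers all lay below 0 in the cerebellum, summing to 183.6 to 2887 CPM in KO and 1889 to 4391 CPM in WT. In the same tissue 7 of 8 microglia markers lay above 0 (median log2 0.18), summing to 145 to 156 CPM in KO and 125 to 132 CPM in WT, groups that do not overlap. Of the oligodendrocyte markers 7 of 8 lay above 0 (median 0.14), summing to 6163 to 6788 CPM in KO and 5660 to 6051 CPM in WT, also without overlap. Endothelium markers had 6 of 8 above 0 and red blood cell markers 5 of 5. Astrocyte markers had 5 above 0 and 3 below in the cerebellum, and neuron markers and markers of meninges and fibroblasts 4 on each side. Of 5 brainstem neuron markers tested 4 lay above 0 (median 2.68), where the sums of all 8 markers, 51.5 to 89.3 CPM in KO and 53.3 to 59.4 CPM in WT, overlapped. The part of such cells in the members' values was not tested.

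Genes that act with the ribosome were counted from lists of translation, mTOR signalling and ribosome assembly. By genotype 0 genes of any list were called in either tissue or in the difference between tissues. Mitochondrial ribosomal proteins, which serve a separate ribosome, had genotype medians of -0.017 (hippocampus) and 0.042 (cerebellum) over 77 genes tested. The 54 ribosome biogenesis genes had 0.013 and 0.0092.

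By tissue each list is given as its split with TMM factors and then with plain library sizes. Of all genes tested, the TMM split was 31.6% higher and 32.5% lower in KO and 33.1% and 33% in WT, and the split with plain library sizes 25.6% and 41.6% in KO and 26.8% and 42% in WT. With TMM factors the splits of initiation factors and ribosome quality control lay near or below these shares. Of 54 ribosome biogenesis genes, 23 were higher and 8 lower in the hippocampus in KO, and 27 higher and 8 lower in WT; with plain library sizes the splits were 15 to 16 in KO and 13 to 17 in WT. Among them were Rrp12 (log2 0.94 in KO and 0.90 in WT, edgeR adjusted p = 1.46e-06 and 2.13e-08) and Bysl (0.88 and 0.94, edgeR adjusted p = 2.27e-06 and 2.60e-07), both assembly factors of the small subunit. Of 77 mitochondrial ribosomal proteins, 5 were higher and 27 lower in KO and 15 higher and 19 lower in WT, among them Mrps5 (-0.31 and -0.34). With plain library sizes these splits were 2 to 44 and 3 to 32, and with TMM factors the median was -0.12 in KO and -0.030 in WT. Of 15 genes of ribosomal RNA synthesis, 4 were higher and 8 lower in KO and 3 higher and 8 lower in WT, with Polr1b, a subunit of RNA polymerase I, at -0.88 and -0.94 and Maf1, a repressor of RNA polymerase III, at -0.42 and -0.43; plain library sizes gave 3 to 9 in each genotype.

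Of 10 elongation factor genes, 4 were higher and 4 lower in KO and 5 higher and 4 lower in WT, or 3 to 5 in each with plain library sizes. Eef1a1, which brings aminoacyl-tRNA to the ribosome, averaged 2041 CPM in KO hippocampus, against 1308 CPM in KO cerebellum, and 2081 CPM in WT hippocampus, against 1298 CPM in WT cerebellum. Eef2k, the kinase that slows elongation, was lower in the hippocampus (log2 -0.63 in KO and -0.68 in WT). Of 41 initiation factor genes, 11 were higher and 10 lower in KO and 14 higher and 10 lower in WT, with Eif4a1, an RNA helicase, at 0.53 and 0.54. With plain library sizes they were 5 to 21 in KO and 4 to 20 in WT. Of 23 other mRNAs known for a pyrimidine run at the start, 8 were higher and 5 lower in KO and 9 higher and 4 lower in WT, or 6 to 9 and 7 to 9 with plain library sizes. These included Vim, an intermediate filament of glial and vascular cells, at -2.43 in KO and -2.35 in WT.

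Of 24 genes of the mTOR pathway and S6 kinases, 5 were higher and 9 lower in KO and 6 higher and 10 lower in WT, or 3 to 14 in each with plain library sizes. Rps6ka1, an S6 kinase, was lower in the hippocampus (log2 -3.35 in KO and -3.27 in WT). Of 13 transcription factors tied to ribosomal protein promoters, 3 were higher and 8 lower in both genotypes, with Max, the partner of Myc, at -0.96 and -1.02; plain library sizes gave 1 to 10 in KO and 1 to 9 in WT. Of 13 genes of ribosome quality control, 4 were higher and 4 lower in both, with Zfp598, which marks stalled ribosomes, at -0.92 and -0.94 and Ascc2 at 0.64 and 0.56; plain library sizes gave 2 to 6 in KO and 3 to 8 in WT. The lists were not tested against all genes, each other or the members.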

How the data were processed

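Poly(A) RNA was sequenced from 2 tissues of 6 animals, 12 libraries in 4 groups of 3, with dUTP strand marking per the labels' protocols. The authors deposited gene-level raw counts in 1 table for each tissue, made with Trimmomatic 0.39, STAR 2.7.10 and featureCounts 2.0.3 and the builds mm10 and GRCm38, per the submitters' processing notes. The annotation release, the strand setting and the treatment of reads that map to several places are not stated there or in the labels. Rows with overlapping or near-identical copies therefore carry uncertain values.

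GENCODE M21 gave symbols, biotypes and exon lengths for 54409 of 54446 identifiers. Tests were run in R 4.3.3 with edgeR 4.0.16 (filterByExpr, TMM, quasi-likelihood, two-sided), and calls were made at 0.05 after Benjamini-Hochberg adjustment over all genes tested. Each genotype comparison used the 6 libraries of a tissue, each tissue comparison the 6 of a genotype, and the difference between tissues all 12. The SE is the absolute change divided by the root of F. Biological variation (coefficient) was 7.54% for hippocampus libraries and 8.23% for cerebellum libraries. Alternatives were RLE factors, plain library sizes, TMM without the members, no filter, DESeq2 1.42.0, limma-voom (3.58.1), a replicate block, all 12 libraries, each replicate left out and, chosen after seeing the data, the animal as a block for the difference between tissues. The fits were tested on simulated data. Tables and figures used Python 3.11.15, pandas 2.3.3, numpy 2.4.6, scipy 1.17.1 and matplotlib 3.10.9.

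Samples of a tissue comparison pair by animal, as the animal numbers in the labels show. Genotype replicates share only a number. Libraries of a group were not duplicates (chi-square per gene 3.91 to 11.6). Replicates are separate animals. Intervals and the floor of 3 counts cover counting error only, for reads without molecular identifiers. Genes named were the members past the threshold or, by genotype, the 6 with the smallest p, the 6 largest changes in each direction called in both genotypes, the 6 highest and lowest per length, the paralogs with the genes they are named after, and the leading called genes of each list. Some genes that this rule or a list names are not reported here. The members and all lists were chosen with earlier results of these data known.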

Additional observations from a re-analysis of the deposited data

Results flagged for a closer look

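Rows with a symbol of the family that were not annotated as protein coding, or had a pseudogene symbol, stood outside the members and held counts. They numbered 296, many with no count, and were picked by symbol, so pseudogenes under other symbols are not among them. Of the 80 members, 57 had such a row named after them. As a percent of the members' counts these rows took between 0.453% and 0.600% in the 12 libraries. The groups were close: 0.478 ± 0.0278% in KO hippocampus, 0.506 ± 0.0499% in WT hippocampus, 0.525 ± 0.0654% in KO cerebellum and 0.533 ± 0.0303% in WT cerebellum (SD, n = 3 each). For single genes the share was larger. The pseudogene rows of Rpl38 summed to 17.9% of that gene's counts over 12 libraries, and those of Rps10 to 12%. The part of such reads in the levels of these members was not tested.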

How the results depend on the processing

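Members called by genotype, and in the difference between tissues, were 0 under every alternative run. Counts over all genes moved: in the hippocampus from 0 to 77 without the filter, 4 with DESeq2 and 2 with the replicate block (leaving out 1 library gave 0 to 2). In the cerebellum, with 2 genes called, they were 417, 37 and 36, and 4 in the fit of all 12 libraries (2 to 33 when leaving out 1 library, the highest without KO library 3). For the difference, with 2 called, they were 275 without the filter and 10 with DESeq2 (2 to 44 when leaving out 1 library, the highest without KO cerebellum library 3). The cause was not tested.

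Leaving out 1 library gave member medians of -0.080 to -0.0033 in the hippocampus, 0.018 to 0.089 in the cerebellum and -0.128 to -0.044 for the difference, with 0 members called throughout. By tissue they were 0.117 to 0.191 in KO and 0.234 to 0.304 in WT, with 36 to 42 and 52 to 63 members called. Plain library sizes gave member medians of 0.0109 in KO and 0.125 in WT. The share of counts with TMM-scaled library sizes was 0.808% in KO hippocampus and 0.830% in WT hippocampus. TMM factors were 0.942 to 0.961 in the hippocampus libraries and 1.036 to 1.065 in the cerebellum libraries. This scaling thus raised the hippocampus share, lowered the cerebellum share and widened the gap between the tissues. The level per kilobase, averaged over libraries, was 42.8 CPM in KO hippocampus, 43.3 CPM in WT hippocampus and 36.9 CPM in WT cerebellum with plain CPM. By coding sequence it was 175 CPM in KO hippocampus, 182.9 CPM in WT hippocampus, 153 CPM in KO cerebellum and 149.7 CPM in WT cerebellum.

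With the animal as a replicate block, 6 members lost the tissue call in KO (Rpl11, Rpl22, Rpl5, Rpl18, Rps14 and Rpl17) and 0 gained it, and in WT 2 lost it, Rps25 among them, and Rps10 gained it. For genotype the replicate block pairs libraries by number only: same-numbered libraries correlated at -0.0027 to 0.052 in the hippocampus and 0.095 to 0.281 in the cerebellum, where 6 of 6 libraries correlated best with their own number, and the member medians with the block were -0.042 and 0.046. The animal block for the difference, chosen after seeing the data, gave a median of -0.074 and 0 members called. Counts were low for Rpl24 (328 over the 12 libraries), Rps10 (1525) and Rps27l (1589), and the cause was not tested.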
